A study of Mus musculus with 45 samples.

Results

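Sorted epithelial cells of embryonic mouse small intestine that carried a tdTomato label in an Axin2 line were compared between E15.5 and E13.5. The libraries were chosen by their sample titles, which gave 9 of the 45 libraries of the series. They formed 3 groups of 3: labelled cells of the posterior part of the gut at E15.5, labelled cells of the anterior part at E15.5, and labelled cells at E13.5, for which the labels name no gut part. All 9 came from wild-type guts on a mixed C57BL/6 and CD1 background, were labelled at E9.5 and were sorted on EpCAM, the adhesion protein that marks epithelia, with 500 cells taken for each library. Each E15.5 replicate was 1 embryo and each E13.5 replicate a pool of 3 embryos. The labels give neither the agent that started the label nor the form of the driver, and they do not state whether the labelled cells were gated on Lgr5. Gut part, pooling and stage cannot be told apart in a comparison with E13.5. Polyadenylated RNA was counted per gene, and levels are given as CPM, the read count of a gene relative to the total of its library after TMM scaling, for replicates 1, 2 and 3 in that order.

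Axin2 is a target gene and a brake of Wnt signalling, and a heritable label started in Axin2-expressing cells stays in their descendants whether or not these still transcribe Axin2. Between the mid-gestation gut tube and the villus-bearing gut, the epithelium leaves a stratified progenitor state and its absorptive, goblet and enteroendocrine cells appear. Notch signalling keeps progenitors from expressing Atoh1, the transcription factor that secretory cells require, and Neurog3 acts after Atoh1 in precursors of hormone cells. Cdx, Gata and Hnf4 factors set intestinal identity. Hedgehog ligands leave the epithelium to act on the mesenchyme, which returns BMP signals, and YAP with its TEAD partners is known for sustaining fetal progenitors.

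Each of the 9 libraries held 17217407 to 19702205 reads in genes. Principal component 1 of the 9 libraries carried 62.1% of the variance and parted the stages, at -36.5 to -14.9 at E15.5 and 50.7 to 51.6 at E13.5. Component 2, with 12.8%, parted the posterior from the anterior libraries. The summed level of 9 epithelial markers was 7620 to 9575 CPM at E15.5 and 6011 to 6622 CPM at E13.5. Mesenchyme and muscle markers summed to 11.9 to 34.2 CPM at E15.5 and 29.1 to 84.7 CPM at E13.5, with a median log2 fold change of -1.32 over 17 genes tested. Endothelium markers stayed at or below 11.9 CPM in every library and blood markers at or below 6.602 CPM. The libraries numbered 3 of both E15.5 parts stood apart. They held 229 CPM (posterior) and 193 CPM (anterior) of Y-linked transcripts, against at most 1.46 CPM in the other 7 libraries, and their level of the immediate early gene Fos was 766 and 1074 CPM, against 147 to 438 CPM elsewhere. Their Xist, a transcript of the inactive X chromosome, was at 0.76 and 0.316 CPM, against 34.9 to 103 CPM in the other 7. Summed stress and dissociation genes were at 10470 and 10680 CPM in these 2 libraries and at 5523 to 7360 CPM in the other 7. Without both libraries, 675 genes were called in the posterior part, 548 moved the same way in both parts and 8 in a single part, against 1077, 832 and 28 with them. In the lists below the averaged comparison without them gave 17 higher and 0 lower goblet and Paneth cell genes, 20 and 1 enteroendocrine genes, 11 and 1 brush border genes and 0 and 12 fetal progenitor genes, against 17 and 0, 22 and 1, 11 and 1, and 0 and 13 with them.

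Axin2, Lgr5 and Epcam were read first as checks of the label and the sort. Axin2 stood at 5.99, 3.62 and 7.01 CPM in the posterior part, 3.79, 12.6 and 5.95 CPM in the anterior part and 5.33, 2.56 and 4.36 CPM at E13.5, with an averaged stage change of 0.65 ± 0.53 (adjusted p = 0.502) on the log2 scale. Changes in parentheses are likewise averaged log2 fold changes with ± the standard error and the edgeR adjusted p, unless a part is named. Lgr5, the receptor of adult intestinal stem cells, had 29.1, 27.6 and 25.6 CPM in the posterior part, 23.1, 82.0 and 14.0 CPM in the anterior part and 26.98, 2.75 and 19.4 CPM at E13.5 (1.01 ± 0.67, adjusted p = 0.378). Both genes overlapped between the stages. Epcam was at 3003, 3010 and 2637 CPM in the posterior part, 2888, 2371 and 2454 CPM in the anterior part and 2096, 2125 and 2272 CPM at E13.5, higher in each E15.5 library than in any at E13.5, as were 12.3% of the genes tested, though its change did not pass the test (0.33 ± 0.16, adjusted p = 0.191).

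How the labelled cells changed with stage was asked in each part separately and for the mean of both parts, with the same E13.5 libraries as the shared control. Of 15513 genes tested, 519 were higher and 558 lower in the posterior part at E15.5 than at E13.5, which is 3.35% and 3.6% of the genes and 6.94% together. In the anterior part 783 were higher and 804 lower, which is 5.05% and 5.18%, or 10.2% together. Averaged over the parts the numbers were 843 and 1083, or 12.4%. The excess of falls in the average turned with the fit. DESeq2 called 1280 higher and 1182 lower, the fit of only the 9 labelled libraries 2249 and 1929, that of the 33 libraries of the Axin2 line 1739 and 1539, and the parts of 1 number summed, 3 against 3, 621 and 532. In the single parts limma voom likewise called more rises than falls, 560 and 484 in the posterior part and 1001 and 758 in the anterior part. In both parts 419 genes rose and 413 fell, 832 genes or 5.36% of those tested. They made up 77.3% of the posterior calls and 52.4% of the anterior calls, and 0 genes moved in opposite directions. Because both comparisons use the same 3 E13.5 libraries, this count is not independent evidence of a shared change. The scatter of the stage changes shows the same-way genes in 2 opposite quadrants and the genes called for a single part beside the axes.

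**Figure D1:**
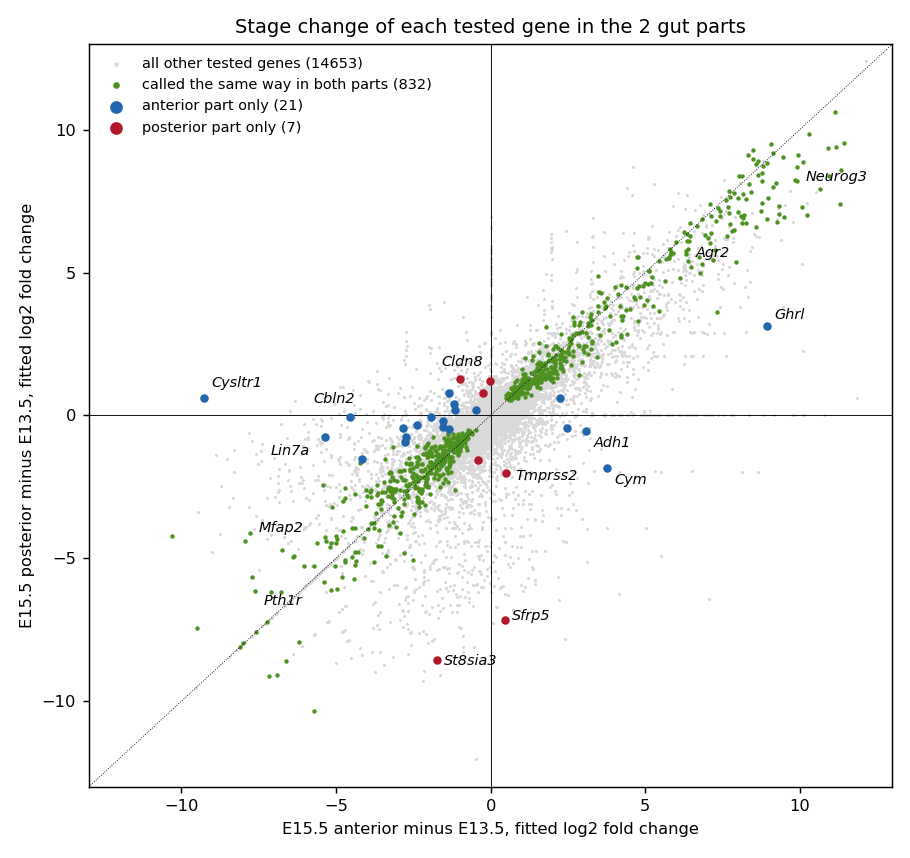
Fitted log2 fold change of each tested gene from E13.5, in the posterior part (vertical axis) against the anterior part (horizontal axis). Green points are the 832 genes called the same way in both parts, red points the 7 called in the posterior part only, blue points the 21 called in the anterior part only and grey points all other genes; the dotted line marks equal change, and both axes share the E13.5 libraries.

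The size of these counts depended on single libraries. Without posterior replicate 1 the posterior calls numbered 616 and the same-way genes 539. Without posterior replicate 3, 695 posterior calls were left, and without E13.5 replicate 1, 2 or 3 there were 696, 694 or 677. Without anterior replicate 1 the anterior calls numbered 1008. The averaged calls numbered 1263, 1272 and 1166 without E13.5 replicates 1, 2 and 3, and the same-way genes 551 without E13.5 replicate 2 and 544 without E13.5 replicate 3.

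Promoter sequence is shown for 4 genes on which the results turn: 1 secretory regulator and 1 secretory product that rose in both parts, 1 scaffold of the YAP pathway that fell in both, and the gene with the largest difference among those that moved in the posterior part only. They were chosen after their values were seen. The 250 bases before the first listed start of each gene were read from RefSeq (build GRCm38.p6), on the gene's own strand, 5′ to 3′. Capitals mark matches on either strand to 1 of 3 motifs, which do not overlap here. For factors of the GATA family the letters searched were AGATAA. The motif of the intestinal CDX factors was taken as TTTATGG, and for the TEAD partners of YAP the letters were GGAATG. Neurog3 lies at chr10:62132840-62133089 (plus strand), Agr2 at chr12:35992675-35992924 (plus strand), Ajuba at chr14:54577662-54577911 (minus strand) and Sfrp5 at chr19:42202253-42202502 (minus strand).
Neurog3: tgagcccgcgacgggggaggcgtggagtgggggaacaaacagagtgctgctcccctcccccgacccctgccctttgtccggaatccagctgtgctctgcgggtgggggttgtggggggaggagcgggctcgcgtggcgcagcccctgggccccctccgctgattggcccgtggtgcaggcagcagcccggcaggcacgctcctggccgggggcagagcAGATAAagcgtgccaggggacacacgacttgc
Agr2: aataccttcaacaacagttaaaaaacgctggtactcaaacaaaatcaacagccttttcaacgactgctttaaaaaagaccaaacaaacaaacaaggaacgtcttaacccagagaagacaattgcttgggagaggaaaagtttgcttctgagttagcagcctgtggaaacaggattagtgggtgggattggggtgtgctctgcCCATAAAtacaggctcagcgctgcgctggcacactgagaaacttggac
Ajuba: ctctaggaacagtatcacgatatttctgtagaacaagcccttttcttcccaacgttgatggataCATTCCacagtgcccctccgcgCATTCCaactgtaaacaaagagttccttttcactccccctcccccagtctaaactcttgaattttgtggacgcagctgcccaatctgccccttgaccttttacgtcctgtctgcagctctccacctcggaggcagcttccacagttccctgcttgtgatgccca
Sfrp5: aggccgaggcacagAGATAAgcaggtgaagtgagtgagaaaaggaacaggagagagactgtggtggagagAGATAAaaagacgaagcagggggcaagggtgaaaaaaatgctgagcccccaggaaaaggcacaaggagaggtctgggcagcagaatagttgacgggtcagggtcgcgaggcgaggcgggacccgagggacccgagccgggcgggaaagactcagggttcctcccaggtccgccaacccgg
Neurog3 had 1 GATA match, Agr2 1 CDX match, Ajuba 2 TEAD matches and Sfrp5 2 GATA matches. Over the 11307 tested genes with a promoter in the table, 6.4% held AGATAA, 1.53% TTTATGG, 11% GGAATG and 10.2% CAGATG, an E-box. Of 303 same-way genes that rose the shares were 8.91%, 2.64%, 14.5% and 14.2%, and of 321 that fell 4.05%, 1.56%, 15% and 7.79%. These matches describe the letters of the window and show no binding.

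Genes of the secretory lineages were among the largest rises. Neurog3, the factor that commits precursors to the enteroendocrine fate, had 52.6, 69.0 and 54.2 CPM in the posterior part, 82.2, 87.5 and 232 CPM in the anterior part and 0.0502, 0.0983 and 0.259 CPM at E13.5. Every E15.5 library was far above every E13.5 library. The rule that named this gene required that the stages not overlap, and 12.3% of the genes tested were higher in every E15.5 library. The averaged log2 fold change was 9.30 ± 1.81 (adjusted p = 0.000408). Chgb, a granin of hormone granules, stood at 262, 150.7 and 38.4 CPM in the posterior part, 158, 225 and 771 CPM in the anterior part and 0.452, 0.393 and 1.45 CPM at E13.5. Posterior replicate 3 was the lowest and anterior replicate 3 the highest of the E15.5 libraries, and the change of 8.29 ± 1.49 (adjusted p = 0.000172) missed the threshold in limma voom (adjusted p = 0.0538). Gfra3, a co-receptor for the growth factor artemin, reached 69.2, 54.5 and 23.4 CPM in the posterior part and 72.8, 54.9 and 190.1 CPM in the anterior part, against 0.0502, 0.393 and 0.104 CPM at E13.5 (8.57 ± 1.93, adjusted p = 0.00215).

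Of 36 enteroendocrine genes tested, 22 were higher and 1 lower in the averaged comparison, against 5.43% of all genes higher and 6.98% lower. The same shares of all genes apply to the averaged counts of every list below. All lists were chosen with earlier results of these data known, so their counts describe the lists and test nothing. The median log2 fold change of the enteroendocrine genes was 5.96, or 5.39 with groups at 0 reads set to a floor of 3 reads over the group, and the median of all genes was -0.03. Neurod1, a transcription factor of the lineage, was among those that rose. It was at 33.1, 36.1 and 9.23 CPM in the posterior part, 55.5, 38.1 and 135.4 CPM in the anterior part and 0, 0.0491 and 0.0519 CPM at E13.5. Its 2 reads at E13.5 put the anterior level at 2240 times that of E13.5 (95% counting interval 618 to 18500) and the posterior level at 796 times (220 to 6580).

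Hormone genes differed in level. Secretin, from Sct, was at 293, 235 and 329 CPM in the posterior part, 252, 239 and 624 CPM in the anterior part and 10.1, 10.03 and 9.75 CPM at E13.5 (5.03 ± 0.58, adjusted p = 7.46e-08). All 6 E15.5 libraries lay above those of E13.5, as for 12.3% of the genes tested. The single lower gene was Cpe, which encodes a prohormone processing enzyme, at 36.3, 33.4 and 16.4 CPM in the posterior part, 47.4, 45.7 and 112 CPM in the anterior part and 131, 112 and 148 CPM at E13.5 (-1.56 ± 0.37, adjusted p = 0.00334). By part, 14 enteroendocrine genes rose and 1 fell in the posterior part, against 3.35% of all genes higher and 3.6% lower. In the anterior part 24 enteroendocrine genes rose and 0 fell, against 5.05% and 5.18% of all genes. The difference between the parts passed for 1 of them, the ghrelin gene Ghrl described below.

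Goblet and Paneth cell genes rose in both parts, 16 of 24 tested, and 17 rose with 0 lower in the averaged comparison (median log2 fold change 4.46). Agr2, a disulfide isomerase of the mucin-producing endoplasmic reticulum, was at 489.7, 239.9 and 475 CPM in the posterior part, 476, 164 and 787 CPM in the anterior part and 7.49, 4.67 and 5.19 CPM at E13.5 (6.24 ± 0.81, adjusted p = 1.07e-06). No E15.5 library came near the E13.5 levels, and anterior replicate 2 was the lowest of the 6. Of the genes tested, 12.3% were higher in every E15.5 library than in any at E13.5. Clca3, a secreted protein of goblet cell mucus with close relatives among which reads can be split, stood at 315, 94.9 and 355 CPM in the posterior part, 236, 103 and 325 CPM in the anterior part and 1.41, 0.147 and 0.156 CPM at E13.5 (8.69 ± 1.27, adjusted p = 9.56e-06). Spink4, a goblet cell peptide, had 175, 81.3 and 137 CPM in the posterior part, 151.2, 41.2 and 141 CPM in the anterior part and 0.854, 0.0491 and 0.259 CPM at E13.5. Ern2, an endoplasmic reticulum stress sensor of mucous cells, rose by 8.50 ± 1.205 (adjusted p = 4.16e-06). Muc2, the gel-forming mucin, had 756 reads over the posterior, 999 over the anterior and 2 over the E13.5 libraries.

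The factors that precede these products rose as well. Atoh1 was at 45.4, 70.5 and 37.3 CPM in the posterior part, 37.9, 22.9 and 64.1 CPM in the anterior part and 0.955, 0 and 0.467 CPM at E13.5 (6.59 ± 1.43, adjusted p = 0.00138). Spdef, which drives goblet cell maturation, had 50.9 ± 14.8 CPM in the posterior part, 82.4 ± 63.1 CPM in the anterior part and 2.88 ± 1.51 CPM at E13.5 (SD, n = 3 each), a change of 4.49 ± 1.05 (adjusted p = 0.00296). Lyz1, a Paneth cell lysozyme with a close paralog, was at 36.1, 7.74 and 55.5 CPM in the posterior part, 109, 8.18 and 107 CPM in the anterior part and 2.06, 0.442 and 0.467 CPM at E13.5. It passed against E13.5 in the anterior part (6.23 ± 2.04, adjusted p = 0.0464) and missed in the posterior part (5.05 ± 1.94, adjusted p = 0.125), and the test between the parts did not pass (adjusted p = 1). In these bulk libraries more secretory cells and more RNA per secretory cell cannot be told apart.

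Among 24 Notch pathway genes 3 rose and 1 fell, against 5.43% of all genes higher and 6.98% lower. The 3 were ligands and a feedback inhibitor. Dll1, a Notch ligand carried by secretory precursors, was at 27.2, 38.0 and 29.2 CPM in the posterior part, 61.2, 82.9 and 109.7 CPM in the anterior part and 1.56, 1.23 and 3.84 CPM at E13.5 (4.54 ± 0.96, adjusted p = 0.000887). Dll3, a divergent ligand, rose by 5.48 ± 1.33 (adjusted p = 0.0042), and Nrarp, a feedback target of Notch, by 4.66 ± 0.95 (adjusted p = 0.000585). The receptor Notch3 fell, at 1.74, 3.07 and 1.34 CPM in the posterior part, 0.972, 4.92 and 3.42 CPM in the anterior part and 17.4, 14.9 and 14.8 CPM at E13.5 (-2.63 ± 0.48, adjusted p = 0.000139). Hes1, a target of Notch that represses Atoh1, did not pass, at 174, 235 and 148 CPM in the posterior part, 194, 155.4 and 212 CPM in the anterior part and 218, 229 and 254 CPM at E13.5.

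**Figure D2:**
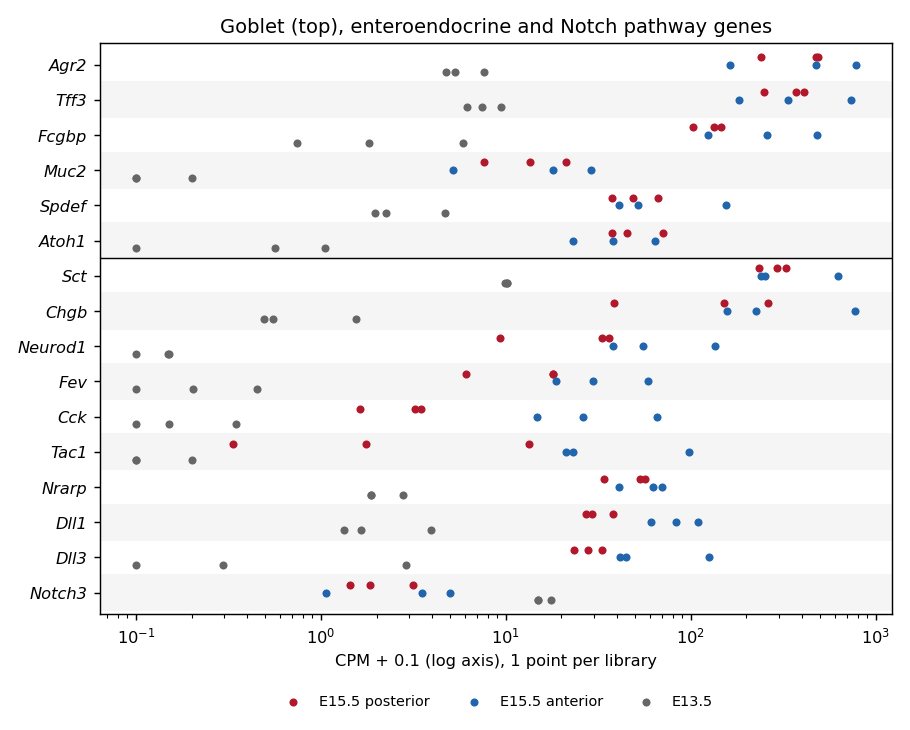
CPM + 0.1 (log axis) of secretory and Notch pathway genes, with 1 point per library, in posterior (red) and anterior (blue) E15.5 libraries and E13.5 libraries (grey). For Agr2 and Sct the 6 E15.5 points lie well to the right of the 3 E13.5 points.

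Part of the genes of absorptive cells rose. Of 26 brush border and digestion genes 11 rose and 1 fell (median log2 fold change 0.96). Eps8l3, an actin regulator of the Eps8 family, was at 233, 177 and 252 CPM in the posterior part, 278, 208 and 217 CPM in the anterior part and 7.59, 5.95 and 6.49 CPM at E13.5 (5.09 ± 0.50, adjusted p = 2.58e-09). Cdhr5, a protocadherin that links microvilli, had 129, 108 and 92.0 CPM in the posterior part, 161, 124 and 149.8 CPM in the anterior part and 39.5, 53.8 and 53.6 CPM at E13.5 (1.37 ± 0.17, adjusted p = 3.92e-07). It was higher in each E15.5 library than in any at E13.5, as were 12.3% of the genes tested. The single fall was Alpl, tissue-nonspecific alkaline phosphatase, at 9.52, 18.4 and 7.65 CPM in the posterior part, 6.14, 14.2 and 5.69 CPM in the anterior part and 127, 100.8 and 80.7 CPM at E13.5 (-3.34 ± 0.38, adjusted p = 5.46e-08). Its intestinal relative Alpi stood at 46.1, 22.5 and 29.6 CPM in the posterior part, 211, 71.3 and 108 CPM in the anterior part and 8.59, 6.09 and 6.12 CPM at E13.5, called in the anterior part (4.23 ± 0.94, adjusted p = 0.00216) and short of the threshold in the posterior part (2.24 ± 0.87, adjusted p = 0.128), with the difference not passing (adjusted p = 0.697).

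Of 26 genes of lipid, retinol and lipoprotein handling 9 rose and 1 fell. Mttp, which loads lipid onto nascent lipoproteins, stood at 290.0, 160.2 and 221 CPM in the posterior part, 783, 551 and 464 CPM in the anterior part and 51.4, 51.2 and 15.8 CPM at E13.5 (3.21 ± 0.38, adjusted p = 9.07e-08). The anterior libraries were the highest and those of E13.5 the lowest, without overlap between the 3 groups, though the test between the parts did not pass (adjusted p = 0.116). Rbp4, the plasma retinol carrier, fell, at 33.5, 44.8 and 45.8 CPM in the posterior part, 16.6, 20.6 and 30.4 CPM in the anterior part and 240.2, 256 and 364 CPM at E13.5 (-3.23 ± 0.37, adjusted p = 5.91e-08).

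Of 24 nutrient and ion transporters 7 rose and 1 fell. The sodium-glucose transporter gene Slc5a1 was at 168, 179.8 and 121 CPM in the posterior part, 193, 143 and 109.6 CPM in the anterior part and 65.2, 41.6 and 44.4 CPM at E13.5 (1.60 ± 0.30, adjusted p = 0.000192). Slc39a4, the zinc importer, rose by 2.34 ± 0.55 (adjusted p = 0.00291). Slc40a1, the iron exporter ferroportin, was lower, at 239, 267 and 77.9 CPM in the posterior part, 376, 241 and 159.5 CPM in the anterior part and 465, 451 and 481 CPM at E13.5 (-1.05 ± 0.30, adjusted p = 0.0142), and the libraries numbered 3 were the lowest of their parts.

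Some enzymes of the gut lining rose as well. Of 15 genes of gluconeogenesis, ketogenesis and fatty acid oxidation 6 rose and 0 fell, among them the thiolase Acaa2 at 1.05 ± 0.23 (adjusted p = 0.00113) and the bisphosphatase Fbp2 at 0.88 ± 0.21 (adjusted p = 0.00312). Of 29 detoxification and antioxidant enzymes 6 rose and 1 fell. Aldh1b1, a mitochondrial aldehyde dehydrogenase, was at 1143, 1123 and 1050 CPM in the posterior part, 1483, 1510 and 1085 CPM in the anterior part and 227, 251 and 243 CPM at E13.5 (2.35 ± 0.35, adjusted p = 7.5e-06), and Gpx2, the glutathione peroxidase of the gut epithelium, rose by 2.79 ± 0.38 (adjusted p = 1.57e-06). The 1 lower enzyme, Cyp3a11, had its 103 reads at E13.5 in replicate 1 alone. Of 24 genes of antigen presentation and innate immunity 5 rose and 0 fell. Ccl25, a chemokine that draws lymphocytes to the small intestine, was at 53.5 ± 17.9 CPM in the posterior part, 85.5 ± 39.3 CPM in the anterior part and 8.78 ± 1.32 CPM at E13.5 (SD, n = 3 each), a change of 2.94 ± 0.39 (adjusted p = 7.63e-07), and the class I molecule gene H2-K1, whose reads can be shared with related genes, rose by 2.04 ± 0.29 (adjusted p = 3.28e-06). 

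Of the 12 leading rises, some belong to none of these lists. They include the chemokine gene Ccl9 at 8.53 ± 1.34. Aadac, a microsomal esterase of liver and gut, reached 56.7, 20.1 and 27.8 CPM in the posterior and 218, 115 and 77.6 CPM in the anterior part, against 0.703, 0.147 and 0.207 CPM at E13.5. Clps, the colipase that lets pancreatic lipase act on fat, stood in the list of liver and pancreas markers. Of the 11 tested, 1 rose and 3 fell in the average. In the anterior part 5 rose and 3 fell, against 5.05% of all genes higher and 5.18% lower. Clps had 45.2, 28.6 and 34.9 CPM in the posterior part, 302, 113 and 218 CPM in the anterior part and 0.402, 0.0983 and 0.363 CPM at E13.5 (8.22 ± 1.19, adjusted p = 7.4e-06). Anterior replicate 1 was the highest, as it was for the pancreatic enzyme genes Ctrb1 (384, 48.8 and 0.105 CPM in the anterior part), Cpa1 (178, 20.8 and 0 CPM) and Cel (183, 24.2 and 0 CPM), whose part in the result was not tested.

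Among same-way genes with an average of 3 log2 CPM or more and no overlap between the stages, the largest fall was that of Pth1r, the receptor of parathyroid hormone and its related peptide. It had 3.98, 7.19 and 1.52 CPM in the posterior part, 1.38, 2.78 and 0.369 CPM in the anterior part and 316, 281 and 305 CPM at E13.5, an averaged log2 fold change of -6.88 ± 0.63 (adjusted p = 9.92e-10). The highest E15.5 library, posterior replicate 2, still held less than the lowest at E13.5, which the choice of genes required. Mfap2, a protein of extracellular microfibrils, stood at 4.31, 4.53 and 2.98 CPM in the posterior part, 1.89, 2.39 and 0.948 CPM in the anterior part and 85.3, 70.9 and 104 CPM at E13.5 (-5.05 ± 0.45, adjusted p = 4.65e-10). Tdh, threonine dehydrogenase, a mitochondrial enzyme known from mouse embryonic stem cells, had 2.18, 5.48 and 4.97 CPM in the posterior part, 2.87, 6.33 and 7.69 CPM in the anterior part and 131, 167 and 148 CPM at E13.5 (-4.93 ± 0.48, adjusted p = 2.17e-09). The proteoglycan versican, Vcan, fell by 3.64 (SE 0.57), the imprinted gene Nnat by 3.86 (SE 0.51) and Igfbp2, a binding protein of insulin-like growth factors, by 3.45 (SE 0.39) on the log2 scale. The averaged calls of the 12 leading falls held in all 19 alternative analyses, and those of the 12 leading rises did so for 11, the exception being Chgb in limma voom. Their calls in the single parts were not followed. The genes were also picked for large changes without overlap in the same libraries, which favours calls that hold.

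**Figure D3:**
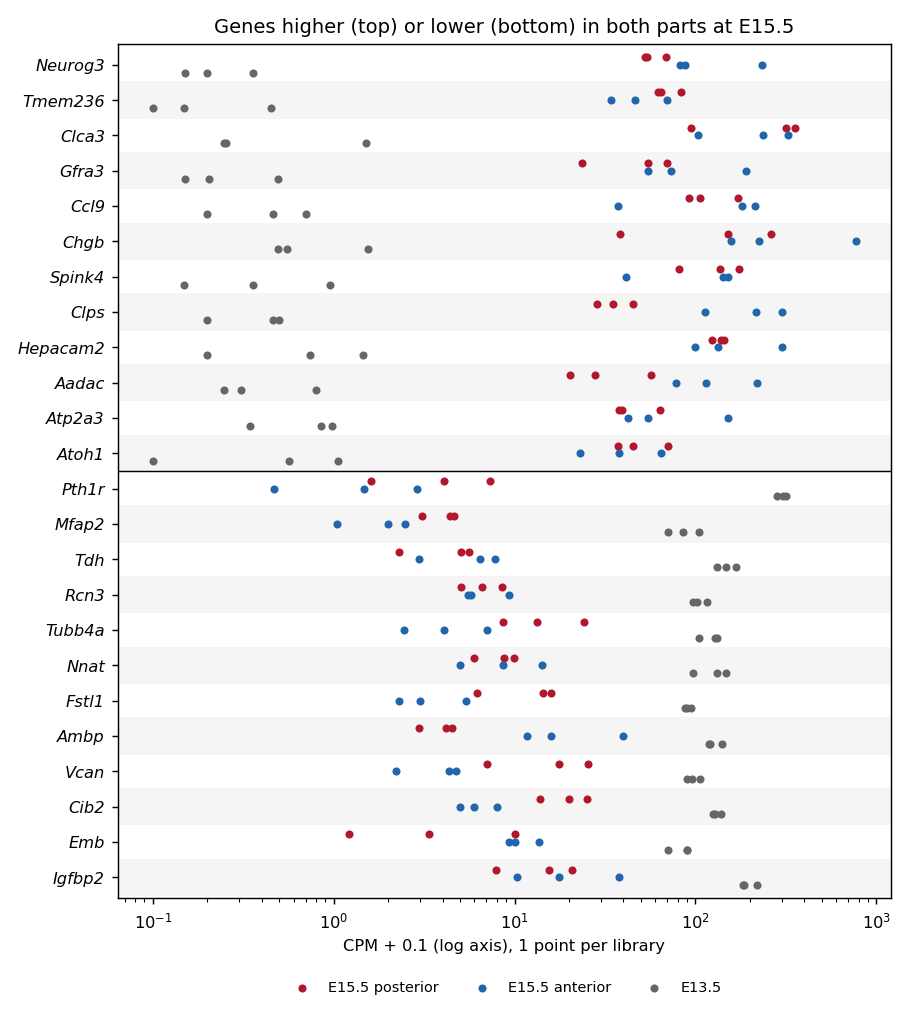
CPM + 0.1 (log axis) of the 12 genes with the largest averaged rise (top) and fall (bottom) among those called the same way in both parts, with 1 point per library, in posterior (red), anterior (blue) and E13.5 (grey) libraries. The 6 E15.5 points of each gene do not overlap its 3 E13.5 points, which the choice of genes required.

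Of 28 fetal progenitor genes 13 fell and 0 rose (median log2 fold change -1.03), and 10 of them fell in both parts. This list was chosen with earlier results of these data known. It holds Pth1r and Ltbp1, the latter with 51, 105 and 3676 reads over the posterior, anterior and E13.5 libraries. The count of falls is thus not independent evidence of a change in such genes. Bex1, a small X-linked protein with close paralogs, stood at 242, 246 and 268 CPM in the posterior part, 97.5, 99.7 and 111 CPM in the anterior part and 499, 590.3 and 506 CPM at E13.5. The groups did not overlap, with the anterior libraries the lowest, and the posterior part exceeded the anterior by 1.29 ± 0.19 (adjusted p = 0.000378). Cldn6, a tight junction claudin of embryonic epithelia, was at 138, 234 and 152 CPM in the posterior part, 82.5, 129.5 and 156 CPM in the anterior part and 755, 841 and 925 CPM at E13.5 (-2.52 ± 0.23, adjusted p = 5.78e-10). Hmga2, a chromatin protein of growing embryonic tissues, had 70.9, 70.1 and 84.4 CPM in the posterior part, 53.7, 43.0 and 53.6 CPM in the anterior part and 178, 161 and 179.6 CPM at E13.5 (-1.49 ± 0.23, adjusted p = 1.76e-05). Among RNA-binding proteins that sustain embryonic growth, Igf2bp3 fell by 0.69 (SE 0.16, adjusted p = 0.00307) on the log2 scale.

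YAP and TEAD genes likewise had 11 of 27 lower and 0 higher (median -1.02). Tead2, which binds DNA for YAP, was at 10.7, 13.7 and 11.2 CPM in the posterior part, 13.1, 20.4 and 25.4 CPM in the anterior part and 89.1, 100.6 and 106 CPM at E13.5 (-2.69 ± 0.32, adjusted p = 1.37e-07). Ajuba, a scaffold that restrains the kinases upstream of YAP, had 7.78, 17.4 and 19.8 CPM in the posterior part, 15.2, 13.2 and 10.7 CPM in the anterior part and 81.7, 60.1 and 63.2 CPM at E13.5 (-2.29 ± 0.36, adjusted p = 2.06e-05). Fstl1, a secreted follistatin relative, stood at 15.8, 14.2 and 6.13 CPM in the posterior part, 2.92, 5.26 and 2.21 CPM in the anterior part and 94.4, 87.2 and 89.4 CPM at E13.5 (-3.80 ± 0.32, adjusted p = 1.31e-10). In these 3 genes every E15.5 library was below every E13.5 library, as in 13.4% of the genes tested. The summed CPM of the list was 784, 884 and 2880 in the posterior part, 968, 1329 and 2313 in the anterior part and 3152, 2997 and 3409 at E13.5. In this sum the libraries numbered 3, which also had the high Fos, were closest to E13.5. Most reads of the list came from Cyr61, with 53891 over the posterior, 59030 over the anterior and 130591 over the E13.5 libraries. The sum thus mainly follows that gene and does not describe the list as a whole. Without the libraries numbered 3, 9 genes of the list fell and 0 rose, and with the parts of 1 number summed, 3 against 3, the falls numbered 6.

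Of 34 Hedgehog and BMP signalling genes 3 were higher and 5 lower, against 5.43% of all genes higher and 6.98% lower. The epithelial ligand Shh was at 15.2, 13.2 and 19.2 CPM in the posterior part, 8.64, 11.3 and 9.80 CPM in the anterior part and 68.7, 51.9 and 48.5 CPM at E13.5 (-2.17 ± 0.44, adjusted p = 0.000516), and its co-receptor Gas1 and the effector Gli3 changed by -2.91 ± 0.60 and -3.24 ± 0.57. Id genes, inhibitors of basic helix-loop-helix factors that BMP signals induce, divided. Id3 had 138, 83.5 and 264 CPM in the posterior part, 145, 154 and 199 CPM in the anterior part and 12.7, 14.9 and 28.4 CPM at E13.5 (3.13 ± 0.54, adjusted p = 6.44e-05). Id1 rose by 2.94 ± 0.55 and Id4 by 4.92 ± 1.13, whereas Id2 was lower, at 538, 596 and 656 CPM in the posterior part, 332, 399 and 363 CPM in the anterior part and 849.9, 910.0 and 1075 CPM at E13.5 (-1.02 ± 0.18, adjusted p = 7.12e-05). Of 34 growth factor ligands and receptors 4 rose and 3 fell, against the same shares of all genes. Pdgfc, a ligand for mesenchymal PDGF receptors, was at 42.3, 58.5 and 30.3 CPM in the posterior part, 14.1, 23.0 and 12.01 CPM in the anterior part and 252, 290.0 and 264 CPM at E13.5 (-3.33 ± 0.27, adjusted p = 6.48e-11), and Fgfr1 changed by -2.59 ± 0.41. Fgfbp1, a carrier that releases FGFs, rose by 2.44 ± 0.43.

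Of 45 Wnt pathway genes 4 rose and 9 fell (median -0.67). The falls included receptors, inhibitors and a repressor. Fzd2, a Wnt receptor, had 3.53, 6.84 and 2.22 CPM in the posterior part, 1.69, 4.09 and 2.53 CPM in the anterior part and 29.4, 31.4 and 37.5 CPM at E13.5 (-3.26 ± 0.38, adjusted p = 7.16e-08), and the secreted inhibitors Dkk3 and Sfrp2 changed by -5.08 ± 0.65 and -3.92 ± 0.57. Tcf7l1, a TCF that mainly represses, was at 8.96, 14.2 and 15.8 CPM in the posterior part, 11.4, 16.7 and 16.1 CPM in the anterior part and 47.8, 39.9 and 45.7 CPM at E13.5 (-1.68 ± 0.29, adjusted p = 6.19e-05). Wnt3, the ligand that Paneth cells later provide, had 3.42, 6.99 and 2.40 CPM in the posterior part and 5.12, 5.31 and 10.1 CPM in the anterior part, against 1 read over the E13.5 libraries. The counting intervals of its ratio to E13.5 ran from 46.5 to 10400 (posterior) and from 71.9 to 16000 (anterior). Of the common targets, Myc (1.27 ± 0.32) and Ccnd2 (0.69 ± 0.18), chosen after their values were seen, rose. Other targets in the list went both ways. Sp5 had 154, 46 and 529 reads over the posterior, anterior and E13.5 libraries and Nkd1 290, 154 and 641, while Cd44 had 583, 531 and 89. Fzd10, another receptor, was called in the anterior part (8.96, 9.20 and 9.99 CPM in the posterior part, 1.38, 1.17 and 1.37 CPM in the anterior part and 27.5, 22.2 and 20.7 CPM at E13.5), but the parts did not differ by test (adjusted p = 0.104). Of 26 adult stem cell genes 2 rose and 2 fell, near the shares of all genes (5.43% higher and 6.98% lower). Smoc2, a matricellular protein of Lgr5-positive stem cells, stood at 45.02, 74.7 and 57.3 CPM in the posterior part, 107, 271 and 113 CPM in the anterior part and 6.13, 12.04 and 11.5 CPM at E13.5 (3.31 ± 0.59, adjusted p = 0.000101). Among the falls, Clu, a chaperone marking regenerating gut cells, was at 21.2, 27.1 and 21.7 CPM in the posterior part, 102, 35.2 and 17.8 CPM in the anterior part and 98.0, 123 and 171 CPM at E13.5 (-1.91 ± 0.48, adjusted p = 0.00523), and anterior replicate 1 lay within the E13.5 range. Its call was lost without E13.5 replicate 3 (edgeR adjusted p = 0.0545) and with the parts summed (0.0517). Ascl2, the Wnt-driven stem cell factor, did not pass, at 38.8, 42.3 and 42.5 CPM in the posterior part, 53.4, 58.0 and 30.6 CPM in the anterior part and 35.4, 19.9 and 18.5 CPM at E13.5.

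Of 36 core gut transcription factors 7 rose and 5 fell. Cdx1, an intestinal homeobox factor, was at 376, 305 and 409.9 CPM in the posterior part, 357, 324 and 339 CPM in the anterior part and 36.6, 15.8 and 24.1 CPM at E13.5 (3.78 ± 0.73, adjusted p = 0.000332), whereas its relative Cdx2 did not pass (-0.57 ± 0.35, adjusted p = 0.334). Hnf4g, a nuclear receptor of enterocytes, had 376, 297 and 274 CPM in the posterior part, 369, 278 and 226 CPM in the anterior part and 97.3, 108 and 119 CPM at E13.5 (1.49 ± 0.27, adjusted p = 0.000124), and Ehf, an epithelial ETS factor, rose by 3.29 ± 0.60 (adjusted p = 0.000137). Foxa1, a pioneer factor of endoderm, was lower, at 129.5, 161 and 136 CPM in the posterior part, 104, 137 and 168 CPM in the anterior part and 405, 342 and 353 CPM at E13.5 (-1.40 ± 0.22, adjusted p = 1.88e-05). Sox11, a factor of embryonic progenitors, changed by -1.804 ± 0.20 (adjusted p = 5.71e-08). Gata4, which marks proximal small intestine, had 61.6, 54.5 and 76.0 CPM in the posterior part, 194, 212 and 208 CPM in the anterior part and 151.2, 127 and 129 CPM at E13.5 and passed in neither part. Among 29 Hox genes, whose reads can be shared within the family, 0 rose and 2 fell, Hoxd3 and Hoxd4, against 6.98% of all genes lower. Both calls were lost with the parts summed (edgeR adjusted p = 0.139 for Hoxd3 and 0.456 for Hoxd4), and that of Hoxd3 also without E13.5 replicate 3 (0.0622). Hoxd4 had 34 reads in the posterior part and 0 in the anterior part, against 72 at E13.5. With 0 reads set to a floor of 3, the anterior part was 23.8-fold lower than E13.5. The counting interval of the anterior ratio to E13.5 reached 0.053. Of 40 proliferation genes 1 rose, the cell cycle inhibitor Cdkn1a, and 1 fell, the replication factor Gins2, with a median log2 fold change of 0.02. Both calls were lost in single leave-out fits.

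Contacts with matrix and neighbours also changed. Of 33 basement membrane and integrin genes 2 rose and 7 fell, against 5.43% of all genes higher and 6.98% lower. Itgb5, an integrin chain for vitronectin, was at 35.8, 41.6 and 25.5 CPM in the posterior part, 45.1, 49.0 and 42.8 CPM in the anterior part and 165, 135.3 and 133 CPM at E13.5 (-1.86 ± 0.30, adjusted p = 2.06e-05), and Sparc, a matrix-binding glycoprotein, changed by -2.78 ± 0.44. The collagen IV chains Col4a1 and Col4a2 changed by -2.53 ± 0.53 and -3.09 ± 0.57. Without the libraries numbered 3, 6 genes fell and 0 rose, and with the parts summed 1 rose and 4 fell. Mesenchyme markers were lower in sum at E15.5, as given above, and their part in the fall of matrix genes was not tested. Of 33 junction and polarity genes 6 rose and 3 fell. Cdh17, the intestinal cadherin, was at 1157, 1186 and 954 CPM in the posterior part, 1181, 1173 and 938 CPM in the anterior part and 486, 484 and 495 CPM at E13.5 (1.17 ± 0.21, adjusted p = 0.000139), while N-cadherin, Cdh2, was at 0.784, 1.96 and 1.46 CPM in the posterior part, 0.256, 0.584 and 1.05 CPM in the anterior part and 7.13, 10.4 and 12.7 CPM at E13.5 (-3.41 ± 0.62, adjusted p = 0.000145). The claudins Cldn2 and Cldn15, which form pores for ions, rose by 2.71 ± 0.60 and 5.84 ± 1.33. Of 19 Eph receptors and ephrins 1 rose and 4 fell, with the ephrins Efna2 at -2.70 ± 0.41 and Efnb2 at -2.02 ± 0.31. Of 20 glycolysis genes 2 rose and 4 fell. Pfkp, a phosphofructokinase, stood at 197, 171 and 177 CPM in the posterior part, 292, 225 and 176 CPM in the anterior part and 4.77, 18.7 and 14.5 CPM at E13.5 (4.02 ± 0.67, adjusted p = 4.74e-05), and Ldhb, a lactate dehydrogenase chain, at 8.23, 8.65 and 5.55 CPM in the posterior part, 11.2, 13.2 and 9.64 CPM in the anterior part and 57.0, 61.4 and 59.7 CPM at E13.5 (-2.69 ± 0.25, adjusted p = 9.92e-10). Of 24 cholesterol synthesis genes 0 rose and 0 fell in the averaged comparison. By part, 1 rose in the posterior part and 1 fell in the anterior part. Of all genes, 3.35% were higher in the posterior part and 5.18% lower in the anterior part.

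**Figure D4:**
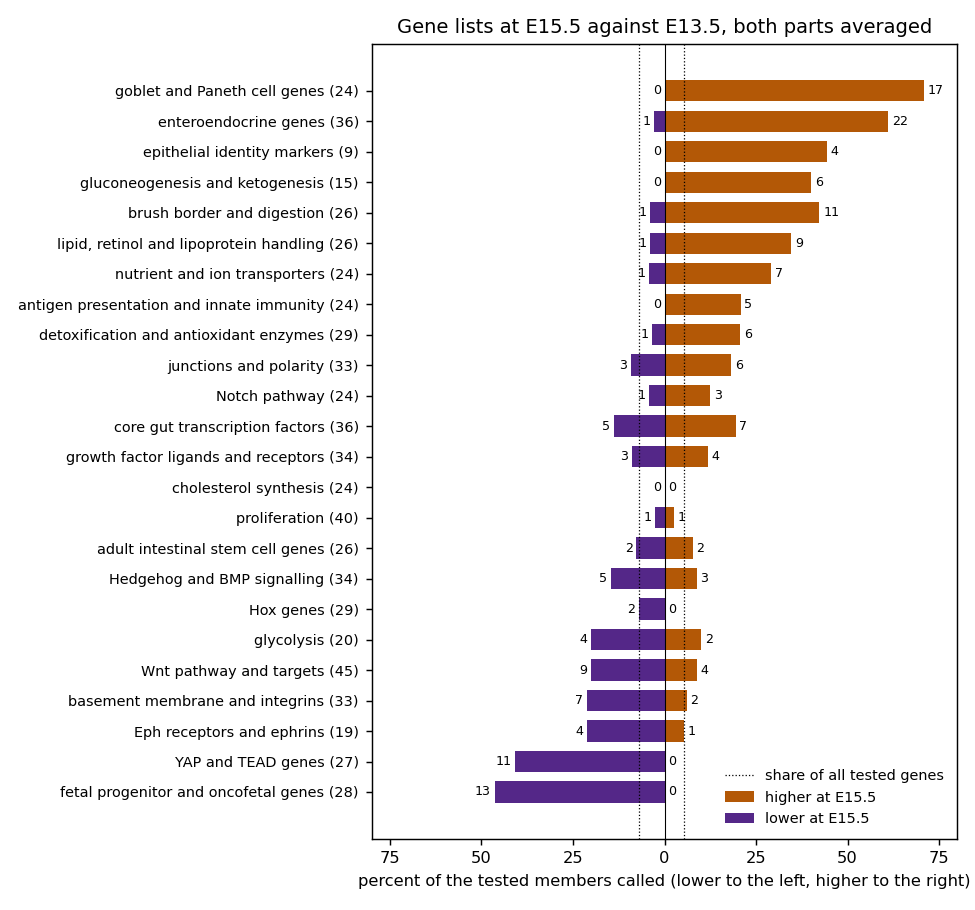
Genes higher (right) and lower (left) in the averaged comparison of E15.5 with E13.5, as a percentage of each list's tested genes, for lists of tissue and pathway genes, with the number tested in brackets after each name, the number called beside each bar and dotted lines at the shares of all tested genes. Goblet and Paneth cell genes had 17 of 24 higher and 0 lower, fetal progenitor genes 0 higher and 13 of 28 lower. The lists were chosen with earlier results of these data known.

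Whether the stage change differed between the parts was tested directly as posterior minus anterior at E15.5, in which the E13.5 term cancels. It passed for 42 genes or 0.271% of those tested, 30 higher (0.193%) and 12 lower (0.0774%) in the posterior part. This balance turned with the fit, at 12 higher and 19 lower in limma voom, 75 and 93 in DESeq2 and 170 and 176 with only the 9 labelled libraries. Libraries of the same number in the 2 parts deviated together, and with the number as a block 90 genes passed. Of the 42, 21 were called against E13.5 in the anterior part only (0.135% of genes tested), 7 in the posterior part only (0.0451%), 11 the same way in both parts and 3 in neither. With the block 36 genes were called for the anterior and 18 for the posterior part alone. The count of 42 fell to 21, 13, 12 and 13 without posterior replicates 1 and 2 and anterior replicates 1 and 3, and the 28 genes called for a single part to 15, 10, 9 and 8. A further 734 genes were called in the anterior part and 238 in the posterior part with no called difference, and whether these moved in a single part is undecided. Without the libraries numbered 3, 12 genes differed between the parts. Values in parentheses are from here on the difference, posterior minus anterior, unless a change from E13.5 is named.

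Of the 7 genes called for the posterior part only, Sfrp5 differed most. This secreted Wnt antagonist had 0.952, 1.26 and 0.409 CPM in the posterior part, 161, 186 and 174 CPM in the anterior part and 157, 93.2 and 129 CPM at E13.5. The anterior libraries lay just above those of E13.5, and the posterior libraries lay far below both. The posterior change from E13.5 was -7.15 ± 0.90 (adjusted p = 2.08e-06), the anterior change 0.46 ± 0.65 (adjusted p = 0.766) and the difference -7.61 ± 0.92 (adjusted p = 1.66e-05). St8sia3, a sialyltransferase, was at 0.392, 0.0503 and 0 CPM in the posterior part, 29.6, 6.18 and 15.4 CPM in the anterior part and 81.4, 24.0 and 64.8 CPM at E13.5, with a difference of -6.81 ± 1.54 (adjusted p = 0.0431) that was kept in 1 of 9 leave-out fits. Tmprss2, a membrane serine protease, had 39.5, 39.1 and 19.8 CPM in the posterior part, 200.5, 193 and 165 CPM in the anterior part and 129.8, 156 and 109.9 CPM at E13.5 (-2.51 ± 0.44, adjusted p = 0.00318). Mmp14, a membrane-bound matrix metalloproteinase, was the fourth gene that fell, at 37.5, 46.3 and 43.0 CPM in the posterior part, 77.8, 100.3 and 106 CPM in the anterior part and 113, 117 and 144 CPM at E13.5 (-1.17 ± 0.25, adjusted p = 0.0268).

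The 3 genes that rose in the posterior part only were Cldn8, Anxa2 and Stambpl1. Cldn8, a barrier-forming claudin, stood at 411, 432 and 256 CPM in the posterior part, 105, 66.3 and 54.5 CPM in the anterior part and 177, 144 and 132 CPM at E13.5. All posterior libraries exceeded those of E13.5 and all anterior libraries were below them, the posterior change being 1.28 ± 0.37 (adjusted p = 0.0256), the anterior change -1.005 ± 0.37 (adjusted p = 0.0761) and the difference 2.28 ± 0.38 (adjusted p = 0.00207). Anxa2, a calcium-dependent membrane-binding protein, had 619, 547 and 497 CPM in the posterior part, 349.9, 166 and 206 CPM in the anterior part and 215, 219 and 295 CPM at E13.5 (1.21 ± 0.25, adjusted p = 0.0193 between the parts). The deubiquitinase gene Stambpl1 differed by 1.02 ± 0.23 (adjusted p = 0.0336).

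For the anterior part only, 5 genes rose, of which 4 are described. Ghrl, which encodes the hormone ghrelin, was at 1.90, 0.151 and 1.17 CPM in the posterior part, 91.1, 61.4 and 30.9 CPM in the anterior part and 0.251, 0.0491 and 0.0519 CPM at E13.5. Each anterior library exceeded all others, and the difference was -5.83 ± 1.29 (adjusted p = 0.0302). Cym, the milk-clotting protease chymosin, had 2.80, 0.955 and 0.292 CPM in the posterior part, 87.6, 54.2 and 57.4 CPM in the anterior part and 5.78, 6.00 and 2.85 CPM at E13.5 (-5.62 ± 1.204, adjusted p = 0.0251). Adh1, an alcohol and retinol dehydrogenase, stood at 7.62, 8.60 and 9.82 CPM in the posterior part, 175, 77.2 and 71.7 CPM in the anterior part and 9.04, 12.5 and 16.3 CPM at E13.5 (-3.64 ± 0.71, adjusted p = 0.00987), and the posterior libraries overlapped those of E13.5. Ifitm3, an antiviral membrane protein of a gene family with similar members, was low throughout, at 0.616, 0.402 and 1.23 CPM in the posterior part, 8.59, 5.55 and 2.58 CPM in the anterior part and 0.502, 0.590 and 1.92 CPM at E13.5 (-2.90 ± 0.67, adjusted p = 0.0431).

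In the anterior part only, 16 genes fell, of which 15 are described. Cysltr1, a receptor for cysteinyl leukotrienes, had 8.18, 4.63 and 3.74 CPM in the posterior part and 0 reads in the 3 anterior libraries, against 3.52, 1.67 and 5.60 CPM at E13.5. With 0 reads set to the floor of 3, the anterior part was 69.9-fold lower than E13.5. The 95% counting interval of its ratio to E13.5 reached 0.0177. Lin7a, a scaffold of cell polarity complexes, was at 14.9, 15.49 and 26.2 CPM in the posterior part, 0.409, 0.292 and 1.63 CPM in the anterior part and 29.5, 27.7 and 39.3 CPM at E13.5 (4.60 ± 0.78, adjusted p = 0.00207). Cbln2, a secreted synapse organiser of the nervous system, had 101.3, 196 and 28.8 CPM in the posterior part, 1.23, 12.7 and 0.527 CPM in the anterior part and 94.6, 56.1 and 189 CPM at E13.5 (4.49 ± 1.004, adjusted p = 0.0361), with wide spread within each group.

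Osr2, a zinc finger factor of embryonic patterning, fell in the anterior part to 47.3, 73.0 and 59.0 CPM, with 218, 266 and 160.2 CPM in the posterior part, against 407, 418 and 407 CPM at E13.5. The posterior libraries lay between the other groups, and their own change of -0.94 ± 0.35 (adjusted p = 0.114) did not pass, while the difference did (1.84 ± 0.36, adjusted p = 0.01). Wls, the carrier that takes Wnt proteins to the cell surface, was at 189, 213 and 128 CPM in the posterior part, 73.5, 87.6 and 78.4 CPM in the anterior part and 238, 225 and 231 CPM at E13.5 (1.15 ± 0.22, adjusted p = 0.00947). Cpne8, a copine that binds membranes in response to calcium, had 106, 129 and 91.3 CPM in the posterior part, 25.7, 32.6 and 20.8 CPM in the anterior part and 144, 124 and 144 CPM at E13.5 (2.04 ± 0.34, adjusted p = 0.00207). Tfpi2 and Tfpi, related inhibitors of coagulation proteases, were higher in the posterior part by 1.89 ± 0.37 and 1.57 ± 0.33. The protease gene Prss23 differed by 1.36 ± 0.24, the GTPase regulator Arhgap29 by 1.36 ± 0.29, the ubiquitin ligase adaptor Klhl13 by 0.89 ± 0.20 and Acat2, an acetyl-CoA acetyltransferase, by 0.68 ± 0.15. Slitrk6, a transmembrane protein with leucine-rich repeats, and the clones 2610528A11Rik and 1700011H14Rik were also higher in the posterior part, by 2.63 ± 0.57, 2.14 ± 0.40 and 1.98 ± 0.42.

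Of the 28 genes called for a single part, the difference held in all 9 leave-out fits for 5, namely Sfrp5, Tmprss2, Cldn8, Lin7a and Cpne8. It held in 5 to 8 fits for 13 genes and in 4 or fewer for 10, among them Ghrl (3 of 9), Cym (4 of 9), Mmp14 (3 of 9) and Stambpl1 (3 of 9), as libraries of either part were left out. Fits without an E13.5 library remove none of the libraries that the difference compares, so the counts of 9 overstate how firm it is. Ghrl, Mmp14, Stambpl1, Ifitm3 and Acat2 lost the difference in every fit without an E15.5 library. Klhl13 and St8sia3 also lost it without a library of E13.5. With the replicate number as a block the difference passed for all 28 in the fit of all libraries, while with a block in only the 9 labelled libraries it was lost for Cbln2 (edgeR adjusted p = 0.113) and Ifitm3 (0.0772). The block in all libraries gives each number 1 shift across the Axin2 line. Yet posterior replicate 2 of unlabelled Lgr5-negative cells at E15.5 held 234 CPM of Y-linked transcripts. Labelled posterior and anterior replicates 2 held 0.201 and 0.146 CPM, so a number does not mark 1 embryo throughout. The change from E13.5, which the call for a single part also needs, was lost in at least 1 leave-out fit for 7 of the 28, among them Cldn8 (lost in 4 of 9), Cym (4), Stambpl1 (4) and Acat2 (9), so change and difference were both kept in all 9 fits for 4 genes, Sfrp5, Tmprss2, Lin7a and Cpne8. Limma voom called 9 of the 21 anterior and 3 of the 7 posterior genes for the same part alone.

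**Figure D5:**
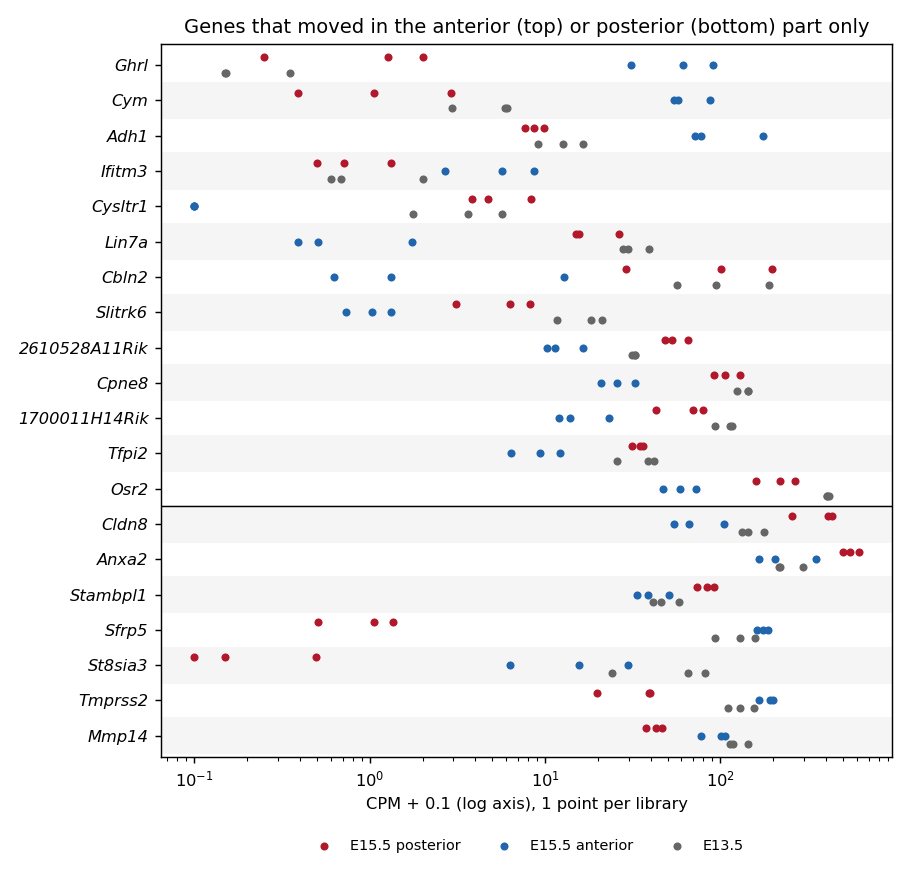
CPM + 0.1 (log axis) of 20 of the 28 genes called in a single part of the gut, 13 anterior genes (top) and all 7 posterior genes (bottom), with 1 point per library, in posterior (red), anterior (blue) and E13.5 (grey) libraries. For Sfrp5 the posterior points lie far below the others, and for Ghrl the anterior points lie above them.

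Among the 11 genes that moved the same way by different amounts, the fall was larger in the anterior part for 9 and larger in the posterior part for 1, and Gstm3 rose more in the anterior part. Cib2, a calcium- and integrin-binding protein, was at 19.9, 24.9 and 13.7 CPM in the posterior part, 5.88, 4.87 and 7.95 CPM in the anterior part and 139, 129 and 126 CPM at E13.5 (1.65 ± 0.29, adjusted p = 0.00293). Tubb4a, a beta-tubulin known mainly from the nervous system, had 13.2, 24.0 and 8.59 CPM in the posterior part, 2.35, 6.96 and 3.95 CPM in the anterior part and 105, 128 and 132 CPM at E13.5 (1.79 ± 0.35, adjusted p = 0.00996). Ambp, the precursor of alpha-1-microglobulin and bikunin, went the other way, at 2.85, 4.42 and 4.09 CPM in the posterior part, 39.8, 15.8 and 11.6 CPM in the anterior part and 119, 121 and 140.4 CPM at E13.5 (-2.56 ± 0.54, adjusted p = 0.0218), with the posterior libraries the lowest. Gulp1, an adaptor of engulfment receptors, differed by 2.05 ± 0.33 (adjusted p = 0.0014). Gstm3, a glutathione transferase with close relatives, stood at 54.4, 40.3 and 34.5 CPM in the posterior part, 172, 80.2 and 100.4 CPM in the anterior part and 13.8, 18.4 and 15.9 CPM at E13.5 (-1.45 ± 0.32, adjusted p = 0.0265). The 3 genes called in neither part were Fabp1, Sc4mol and Ugt2b36, of which the fatty acid carrier gene Fabp1 was at 4.65, 1.91 and 1.05 CPM in the posterior part, 164, 57.2 and 87.7 CPM in the anterior part and 18.0, 17.6 and 13.54 CPM at E13.5 (-5.34 ± 1.17, adjusted p = 0.0302), so that the parts lay on either side of E13.5.

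Undecided genes include some with wide gaps between the parts. Onecut2, a transcription factor of the proximal gut, had 3.86, 0.302 and 1.11 CPM in the posterior part, 65.2, 35.5 and 81.2 CPM in the anterior part and 63.5, 34.0 and 64.7 CPM at E13.5. The posterior libraries were the lowest, with a posterior change of -4.95 ± 1.21 (adjusted p = 0.00847), and the difference missed the threshold at adjusted p = 0.0646. Naaladl1, a brush border peptidase, was at 152, 196 and 133 CPM in the posterior part, 32.6, 26.9 and 12.7 CPM in the anterior part and 38.9, 22.5 and 21.1 CPM at E13.5, and its difference had adjusted p = 0.0699. Sfrp2 and Mttp, called the same way in both parts, had differences of 2.98 ± 0.75 and -1.42 ± 0.37 that did not pass.

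Labelled cells were set beside unlabelled EpCAM-positive cells of the same line, stages and parts, sorted as Lgr5-positive or Lgr5-negative (18 libraries), to see whether their stage change was their own. The difference of the stage changes passed for 0 of 15513 genes in edgeR, with 207 at an unadjusted p under 0.05. Limma voom also called 0 and DESeq2 called 34. Pth1r in unlabelled cells was at 2.42 ± 1.83 CPM (Lgr5-positive) and 2.08 ± 1.79 CPM (Lgr5-negative) at E15.5 (SD, n = 6), against 209 ± 12.2 and 239 ± 53.1 CPM at E13.5 (SD, n = 3), and labelled minus unlabelled change was 0.12 ± 0.72. For Neurog3 that difference was 1.69 ± 2.04 and for Agr2 0.81 ± 0.74.

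Levels of Sfrp5 went with the Lgr5 gate as well as with the part. In unlabelled cells at E13.5 it stood at 0.853 ± 0.349 CPM in Lgr5-positive and 481 ± 206 CPM in Lgr5-negative cells (SD, n = 3), and the labelled cells of E13.5, at 157, 93.2 and 129 CPM, lay between. Its labelled minus unlabelled stage change was -2.46 ± 0.79 and did not pass in edgeR (adjusted p = 1). In the same cells Osr2 was at 513 ± 69.0 CPM (Lgr5-positive) and 228 ± 21.3 CPM (Lgr5-negative), and Lin7a at 47.7 ± 18.9 and 12.5 ± 3.65 CPM, in the same order of gates. The share of Lgr5-positive cells among the labelled cells is not given, and its part in these changes was not tested.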

How the data were processed

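Whole-number read counts per gene, deposited by the authors as 1 table for each of the 45 libraries, were the starting point. Per the labels' protocols, cDNA was made from polyadenylated RNA with the SMARTer kit, amplified for 15 cycles and made into Ovation Ultralow libraries. Per the submitters' processing notes, bcl2fastq 1.8.4, STAR 2.3.1z13, SAMtools 1.2, HTSeq 0.6.1p1 and DESeq2 1.14.1 were used with build mm9. Neither the annotation nor whether reads were counted by strand is stated in what was used here, so overlapping and antisense genes cannot be separated, and members of gene families are uncertain. The 5 closing lines of each table, which name no gene and held 24.4 to 29.4% of the reads, entered neither library sizes nor tests.

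Groups came from the sample titles. All 45 libraries entered a single fit of 15 group means with edgeR 4.0.16 (R 4.3.3; quasi-likelihood, robust, TMM, filterByExpr with minimum count 10 and total 15, 30 residual degrees of freedom), so the spread is shared across groups. Adjusted p-values are Benjamini-Hochberg over the 15513 of 23366 genes tested, and genes under 0.05 were called, with "rose" and "fell" meaning called. A log2 fold change is given ± a standard error derived from the test, its size divided by the square root of edgeR's F statistic. This error is thus no measure of spread separate from the p-value. A gene counted as moving in a single part was called there, not called in the other part, and called between the parts. The scripts were tested on simulated counts. Replicates of a group differed by a chi-square of 16.1 to 58.7 per degree of freedom, so none repeats another. Counting intervals and floors cover counting error only, since reads carry no molecular identifiers. The series' design text calls the replicates biological.

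The members and the gene lists were chosen with earlier results of these data known. Named genes are Axin2, Lgr5 and Epcam, the 12 largest averaged changes in each direction among same-way genes whose stages do not overlap, whose average is 3 log2 CPM or more and which have a proper symbol, the genes of a single part, and for each list the members with the lowest adjusted p, at most 5, plus Wnt, stem cell, transcription factor and Hox genes called in a single part. Alpi, Ascl2, Ccnd2, Cdx1, Cdx2, Cel, Cldn15, Cpa1, Cpe, Ctrb1, Cyp3a11, Ehf, Gas1, Gata4, Hes1, Hmga2, Id4, Igf2bp3, Lyz1, Muc2, Myc, Naaladl1, Neurod1, Slc40a1, Spdef and Spp1 fall outside this rule and were chosen after their values were seen. A few genes that the rule names are not reported here.

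The titles number the replicates 1 to 3 in each group without saying what a number marks. On 9407 genes, same-numbered posterior and anterior libraries deviated together from their group means (correlations 0.407, 0.316 and 0.414), while none of the same-numbered pairs with E13.5 exceeded 0.1. The pairing of the parts is thus read from the data, and the main fit does not use it. Alternatives were DESeq2 1.42.0, limma voom (limma 3.58.1), RLE size factors, no filter, smaller sets of libraries, the replicate number as a block, each labelled library left out, and summed parts. Leaving out the E15.5 libraries numbered 3 was added after seeing the data.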

Additional observations from a re-analysis of the deposited data

Results flagged for a closer look

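The stage changes of the 2 gut parts differed by edgeR's test of the difference itself for 42 genes, most of which are given here as posterior minus anterior log2 change; a positive value means that the posterior part was higher at E15.5. Of the genes called against E13.5 in the anterior part only, the value was positive for Cysltr1 (9.90), Lin7a (4.60), Cbln2 (4.49), Slitrk6 (2.63), 2610528A11Rik (2.14), Cpne8 (2.04), 1700011H14Rik (1.98), Tfpi2 (1.89), Osr2 (1.84), Tfpi (1.57), Arhgap29 (1.36), Prss23 (1.36), Wls (1.15), Klhl13 (0.89) and Acat2 (0.68). It was negative for Ghrl (-5.83), Cym (-5.62), Adh1 (-3.64) and Ifitm3 (-2.90). Among the genes called in the posterior part only it was positive for Cldn8 (2.28), Anxa2 (1.21) and Stambpl1 (1.02), and negative for Sfrp5 (-7.61), St8sia3 (-6.81), Tmprss2 (-2.51) and Mmp14 (-1.17). The genes that moved the same way in both parts had positive values for Olfml1 (2.55), Gulp1 (2.05), Serpine2 (1.91), Fstl1 (1.798), Tubb4a (1.79), Cib2 (1.65), Pdgfc (1.42), Bex1 (1.29) and Arxes1 (1.08), and negative values for Ambp (-2.56) and Gstm3 (-1.45). For genes called in neither part, Ugt2b36 (1.96) and Sc4mol (1.07) were higher in the posterior part and Fabp1 (-5.34) was lower. The difference of 8 genes, Sfrp5, Tmprss2, Cldn8, Lin7a, Cpne8, Bex1, Cib2 and Gulp1, passed with each of the 9 libraries left out in turn, that of Prss23 was lost without anterior replicate 1 alone (8 of 9 fits), and that of Sc4mol passed in 0 of 9. Groups of 3 libraries are too small for a test of single outlying samples.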

How the results depend on the processing

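Of the counts given above, the anterior, posterior and averaged calls (1587, 1077 and 1926), the same-way genes (832), the genes of a single part (28) and the genes that differ between the parts (42) stayed within 1.5 times under limma voom, RLE size factors and no filter on low counts. The genes were not all the same: limma voom shared 699 of the 832 same-way genes, 9 of the 21 anterior and 3 of the 7 posterior genes of a single part. DESeq2 called 1645 genes in the posterior part, 168 between the parts, 34 between labelled and unlabelled cells and 131 in a single part. With only the 9 labelled libraries the counts were 3934 (anterior), 3159 (posterior), 4178 (averaged), 346 (between the parts), 2341 (same way) and 210 (single part). With the 33 libraries of the Axin2 line they were 2933, 2183, 3278, 122, 1664 and 80 in the same order, with 1 gene between labelled and unlabelled cells. Fits with fewer groups estimate the spread from fewer libraries; the cause of their larger counts was not tested.

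The replicate block within each marker line gave 1676 posterior calls, 90 genes between the parts, 1278 same-way genes and 54 genes of a single part. The replicate block with only the 9 labelled libraries gave 4006, 3220, 4239, 340, 2386 and 196 in the order above. All 832 same-way genes were still called the same way with the block within the line, as were 20 of the 21 anterior and 6 of the 7 posterior genes of a single part; the block with the 9 labelled libraries kept 823 of the 832, 11 of the 21 and 3 of the 7. The E13.5 libraries share only a number with those of E15.5.

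Leaving out each labelled library in turn gave 1008 to 1550 anterior, 616 to 1049 posterior and 1166 to 1711 averaged calls, 12 to 39 genes between the parts, 539 to 756 same-way genes and 8 to 24 genes of a single part. Leaving out both E15.5 libraries numbered 3, chosen after seeing the data, gave 675 posterior calls, 12 between the parts, 548 same-way genes and 8 of a single part. Parts of the same number summed, 3 against 3, gave 1153 averaged calls, 621 higher and 532 lower. At a false discovery rate of 0.1 for the difference, 39 genes moved in a single part. Car1, a carbonic anhydrase called lower in the averaged comparison, had all its E13.5 reads in replicate 1, and its log2 fold change ran from -9.01 to 2.11 over the fits without 1 library, reversing to 2.11 without E13.5 replicate 1.

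With 3 libraries of 500 cells a group, genes near the floor rest on few reads, and a group at 0 reads allows up to 3. The E13.5 libraries enter every stage comparison, so each of them moves several counts at the same time.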

Other observations

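Reads of pancreatic digestive enzymes came almost wholly from 2 anterior libraries. Ctrb1, a chymotrypsinogen, was at 0.0560, 0.0503 and 0.0584 CPM in the posterior part, 384, 48.8 and 0.105 CPM in the anterior part and 0, 0.0983 and 0 CPM at E13.5. Cpa1, a carboxypeptidase, had 0, 0 and 0 CPM in the posterior part, 178, 20.8 and 0 CPM in the anterior part and 0.703, 0.147 and 0.623 CPM at E13.5, and Cel, the bile salt-activated lipase, 0, 0.0503 and 0.0584 CPM in the posterior part, 183, 24.2 and 0 CPM in the anterior part and 0, 0 and 0 CPM at E13.5. Anterior replicate 1 was the highest for all 3 genes and anterior replicate 3 was at or near 0, so a fitted change in the anterior part rests on single libraries; it was 11.84 ± 3.05 (adjusted p = 0.00901) for Ctrb1 and 13.54 ± 3.81 (adjusted p = 0.0197) for Cel. These genes were chosen after their values were seen. Colipase, Clps, described above, differed from them in that all 3 anterior and all 3 posterior libraries held it.

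Some genes known from the fetal liver fell at E15.5. Afp, alpha-fetoprotein, stood at 31.8, 52.0 and 47.7 CPM in the posterior part, 34.6, 39.5 and 64.8 CPM in the anterior part and 123, 128 and 136 CPM at E13.5 (-1.52 ± 0.32, adjusted p = 0.000798). Fgb, a fibrinogen chain, had 5.04, 7.84 and 2.22 CPM in the posterior part, 0.921, 0.828 and 1.32 CPM in the anterior part and 19.99, 21.1 and 21.7 CPM at E13.5 (-3.20 ± 0.73, adjusted p = 0.00211), a call lost with the parts summed, 3 against 3 (edgeR adjusted p = 0.0625). Serpina1a, a protease inhibitor, had 19.7, 28.7 and 11.2 CPM in the posterior part, 9.62, 12.5 and 7.21 CPM in the anterior part and 26.3, 32.0 and 50.2 CPM at E13.5 (-1.37 ± 0.32, adjusted p = 0.00264), with its call lost without E13.5 replicate 3 (adjusted p = 0.0706). For Afp and Fgb no E15.5 library reached the E13.5 levels, as for 13.4% of the genes tested. Spp1, osteopontin, had 0 reads in the posterior part, against 1406 reads at E13.5. With 0 reads set to a floor of 3, the posterior part was 431-fold lower than E13.5. The counting interval of the posterior ratio to E13.5 reached 0.00285. However, E13.5 replicate 2 also had 0 reads of Spp1, and the change did not pass (-12.02 ± 3.98, adjusted p = 0.0684).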
